A study of Mus musculus with 12 samples.

Results

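Kidneys of Jaml knockout (KO) mice were compared with wild-type (WT) kidneys, both from sham-operated mice without kidney injury. The samples are the 3 arrays titled as KO sham and the 3 titled as WT sham, 6 of the 12 arrays of the series. All mice were male and were kept free of specific pathogens, and the knockout was made on a C57/6J background. The submitters state that its loss was checked by western blot and immunohistochemistry. The other 6 arrays hold KO and WT kidneys collected 24 h after ischemia-reperfusion injury (IRI), and they enter here through the shared estimate of spread and 1 comparison at the end. RNA of kidney tissue was labelled with Cy3 and hybridised to one-colour Agilent arrays. The labels do not give the deleted part of Jaml, the cells that lack it, the age of the mice or whether WT mice were littermates.

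JAML (junctional adhesion molecule-like) is a membrane protein of the immunoglobulin superfamily. It is found on neutrophils, monocytes and some T cells, binds the coxsackievirus and adenovirus receptor on epithelia, and is known for a part in leukocyte passage across epithelial layers. Many of the genes below belong to the interferon response. Interferon-gamma, made mainly by T and natural killer (NK) cells, acts through the kinases JAK1 and JAK2. It raises IRF1, guanylate-binding proteins, immunity-related GTPases, antigen presentation by MHC molecules and chemokines that draw activated lymphocytes. Type I interferons act in part through STAT2 and IRF9 and raise an overlapping set of antiviral genes.

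Levels are log2 signals minus the 75th percentile of the array, so a level of 0 is the signal of a fairly bright probe. Differences are KO minus WT on the log2 scale, followed by the standard error (SE) of a limma fit with n = 3 per group. A gene was called, or is said to be lower or higher, where its adjusted p was below 0.05. Of 25744 genes tested, 962 (3.74%) were lower in KO and 1328 (5.16%) were higher. The falls were larger than the rises: the medians among called genes were -1.61 and 0.89, and 95 genes were at least 8-fold lower against 7 at least 8-fold higher. The median difference of all genes was 0.12, and list medians below stand beside that value. Under quantile normalization that median was 0.06 and higher genes made up 43.1% of the calls, in place of 58.0%, with 1086 lower and 824 higher.

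All WT arrays of the series lay on 1 slide and all KO arrays on another, so genotype and slide cannot be told apart. Between 62.9% and 68.1% of the probes on an array were well above background, and none was saturated. The first principal component of the 6 sham arrays held 58.1% of the variance and separated WT from KO. The second held 18.5% and set WT sham replicate 3 apart (-55.2) from WT sham replicates 1 and 2 (24.6 and 36.6). In each group, 2 arrays lay close together. Over 14785 bright spots, the SD of the log2 difference was 0.131 between WT sham replicates 1 and 2 and 0.127 between KO sham replicates 1 and 3. It was 0.226 to 0.329 for the other pairs of sham arrays of 1 genotype. On 285 probes with repeated spots, the SD was 0.098 for the close WT pair and 0.132 for the close KO pair. Noise between the repeated spots gave an expected SD of 0.034 to 0.046, so both pairs differed by more than that. Spots repeated within an array do not measure noise between arrays. On these probes KO sham replicates 2 and 3 gave 0.133, so the close KO pair did not stand out there. The series text calls the 3 samples of a group independent, and whether each close pair came from separate mice was not tested.

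The close pairs bear on every p-value below, which measures only the spread between these samples. With each close pair averaged into 1 sample, an alternative added after seeing the data, limma called 8 genes, 7 lower and 1 higher, and 3788 genes had an unadjusted p below 0.05. All 962 lower and 1328 higher genes kept their direction. That fit reuses the sham arrays on which the genes were called, so the kept direction is no separate support. The calls also moved with single arrays. Lower and higher calls numbered 342 and 302 without KO sham replicate 1, 407 and 375 without KO sham replicate 3, 474 and 456 without WT sham replicate 1, and 502 and 600 without WT sham replicate 2. They numbered 790 and 650 without WT sham replicate 3, 738 and 781 without KO sham replicate 2, and 1467 and 2928 without WT IRI replicate 1, the array that lay farthest from its group.

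**Figure D1:**
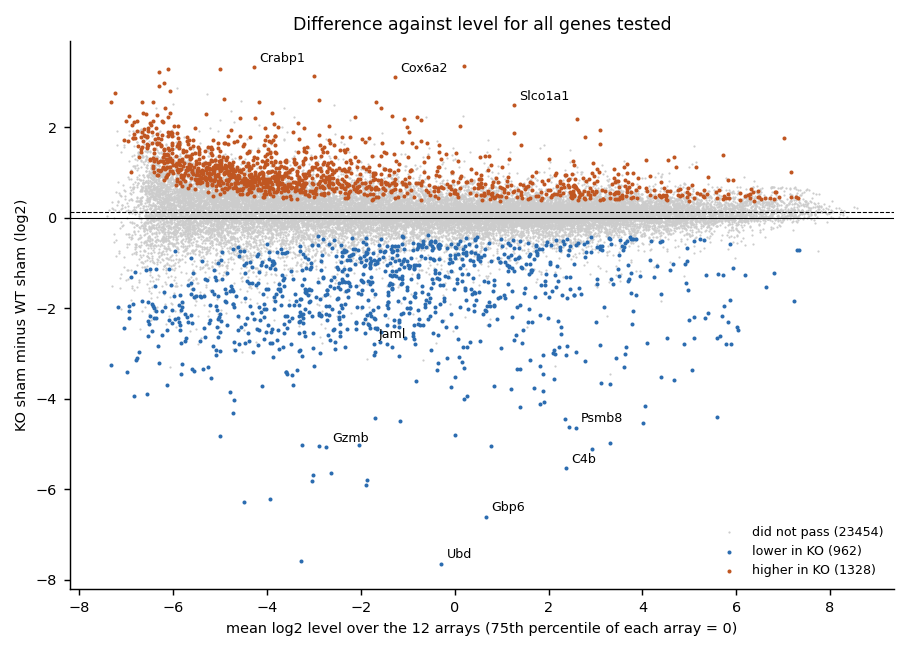
The KO sham minus WT sham difference (log2, vertical axis) is plotted against the mean level over all 12 arrays (log2, horizontal axis), 1 point per gene, blue where called lower (962) and orange where called higher (1328). The dashed line is the median of all genes (0.12). The falls reach -7.65 (Ubd), and the labelled rises reach 3.32 (Crabp1).

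Jaml itself was lower in every KO sham kidney. It had 1 probe on the array, at chr9:44915486-44915545 (mm9), printed here because the check of the genotype rests on it.
Jaml probe: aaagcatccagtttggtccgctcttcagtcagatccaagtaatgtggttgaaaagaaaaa
Its level was -0.26, -0.26 and -0.44 in the WT kidneys and -3.54, -2.59 and -3.18 in the KO kidneys. The groups did not overlap, and the gap between them was wider than the range of either group. The difference was -2.79 ± 0.56 (adjusted p = 0.0152), a 6.9-fold lower signal. The adjusted p was 0.0541 without WT sham replicate 1, 0.0693 without KO sham replicate 1 and 0.0594 without KO sham replicate 3. The probe was well above background on all 3 KO arrays, and no source used here says whether the deletion covers the probe. Leukocytes express Jaml, and several leukocyte genes were lower as well. In whole-tissue RNA, fewer cells of a type and less RNA per cell cannot be told apart.

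Of the 8 relatives and partners of JAML tested, none passed the limma test, and 1 had an unadjusted p below 0.05. Cxadr, the gene of the epithelial receptor that JAML binds, differed by -0.22. The junctional adhesion molecules F11r, Jam2 and Jam3 differed by 0.04, -0.05 and -0.57.

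The interferon signalling genes called lower were mostly transcription factors, whereas the receptors and kinases did not pass the test. Of 15 genes tested, 7 were lower and 0 higher, with a median of -1.54. The count of lower genes was 2 without KO sham replicate 1 and 3 without KO sham replicate 3. Irf1, a transcription factor that activates many of the genes below, stood at 4.37, 4.46 and 6.43 in WT and at 1.85, 3.03 and 1.92 in KO. Its difference was -2.82 ± 0.55 (adjusted p = 0.0142), and every KO array lay below every WT array. Irf7, which amplifies the type I response, differed by -3.52 ± 0.46. Socs1, a feedback inhibitor of the pathway, differed by -2.45 ± 0.65, and by -1.56 without WT sham replicate 3, which did not pass. Smaller falls were called for Irf9 (-1.58), Stat2 (-1.75) and Irf8 (-1.54). In all 7, WT sham replicate 3 was the highest array.

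The receptor chains Ifngr1, Ifngr2, Ifnar1 and Ifnar2 differed by -0.43, -0.13, -0.09 and -0.17, and the kinases Jak1, Jak2 and Tyk2 by -0.11, 0.02 and -0.24. None of these passed. Ifng, the gene of interferon-gamma, read -1.42, -1.39 and -4.97 in WT and -5.77, -3.93 and -6.44 in KO. WT sham replicates 1 and 2 were high, whereas replicate 3 lay below the highest KO array, so the groups overlapped. The difference of -2.79 ± 0.93 did not pass (adjusted p = 0.0946).

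The guanylate-binding proteins, GTPases that act against microbes inside cells, had the lowest median of the 67 gene lists, -4.50. Of 11 tested, 10 were lower. The same 10 had every KO array below every WT array, which held for 12.2% of all genes. The count of lower genes was 6 without KO sham replicate 1. Gbp6 read 4.80, 4.81 and 6.32 in WT and -1.88, -0.02 and -2.01 in KO. The difference was -6.61 ± 1.06 (adjusted p = 0.00683), or 97.8-fold. Gbp9 and Gbp11 differed by -5.83 ± 1.06 and -5.79 ± 0.77. Gbp2 read 5.86, 5.79 and 7.73 in WT and 0.86, 2.18 and 0.97 in KO (-5.12 ± 1.24). KO sham replicate 2 was the highest KO array in these 4 genes and still lay below every WT array. Gbp5 did not pass: it read -0.28, -0.53 and 0.14 in WT and -0.56, -0.27 and -0.40 in KO (-0.19 ± 0.19, adjusted p = 0.61). Members of this family are near copies in places, so a probe may read more than 1 of them.

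All 6 immunity-related GTPases tested, a mouse family that disrupts the vacuoles of parasites and bacteria, were lower, with a median of -4.36. The count was 1 without KO sham replicate 1, 2 without KO sham replicate 3 and 3 without any 1 of WT sham replicates 1, 2 or 3. Iigp1 read 6.53, 6.63 and 7.71 in WT and 1.34, 3.28 and 1.33 in KO (-4.98 ± 1.07, adjusted p = 0.0212). Igtp read 6.45, 6.52 and 7.93 in WT and 2.32, 3.88 and 2.19 in KO (-4.17 ± 0.76). Both groups stood apart in each gene, and WT sham replicate 3 was the highest of all arrays.

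Most of the antiviral genes that either interferon type can raise were lower too, with a median of -2.50. Of 27 tested, 21 were lower and 0 higher, and all 27 had every KO array below every WT array, against 12.2% of all genes. The count of calls was 13 without KO sham replicate 1. Bst2, which tethers budding virus to the cell, read 5.19, 5.23 and 6.02 in WT and 1.76, 1.95 and 1.74 in KO (-3.66 ± 0.56, adjusted p = 0.00573). Zbp1, a sensor of viral nucleic acid, differed by -3.22 ± 0.59, and Ifit1, which binds viral RNA, by -3.19 ± 0.44. Isg15, a ubiquitin-like protein, read 3.79, 3.88 and 5.67 in WT and 1.35, 1.72 and 1.36 in KO (-2.97 ± 0.41). Oas3 differed by -3.55 ± 0.53, with only 1 of 3 KO arrays well above background. Rsad2, Ifi44 and Ifit2, antiviral genes of the same list, differed by -0.62, -0.93 and -2.50 without passing.

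**Figure D2:**
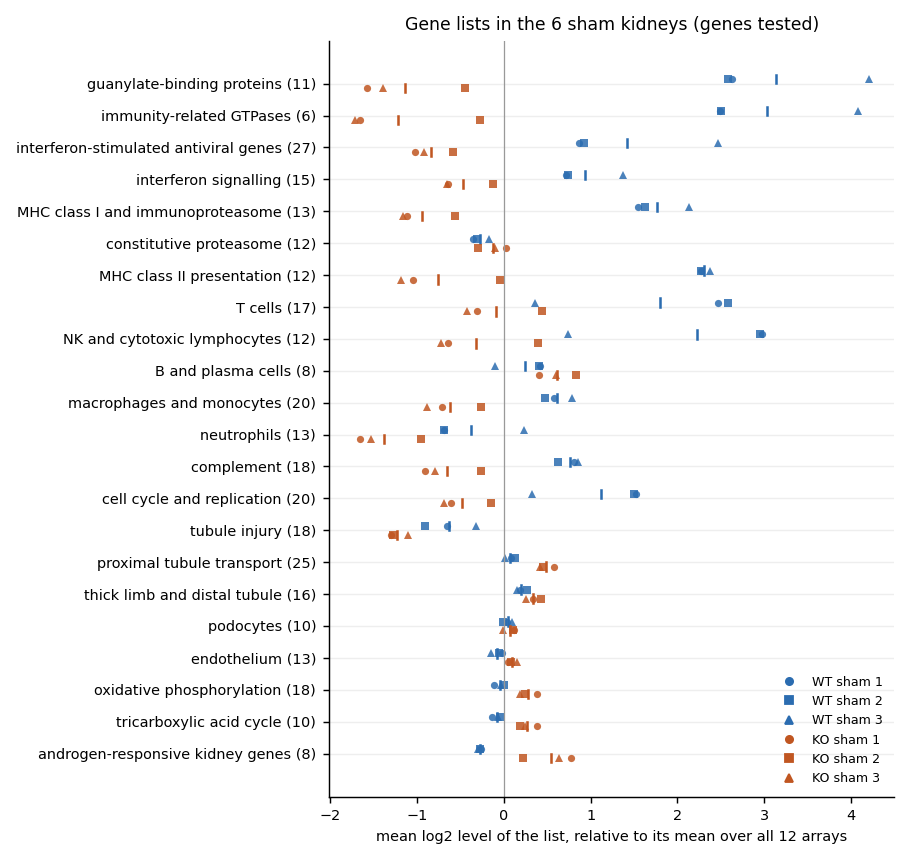
Mean log2 level of 22 gene lists in each sham kidney, relative to the mean of the list over all 12 arrays (horizontal axis); blue symbols are WT, orange symbols KO, and vertical ticks the group means. The guanylate-binding proteins lie between 2.58 and 4.20 in WT and between -1.57 and -0.45 in KO, while podocyte genes lie between -0.003 and 0.099 in WT and between -0.011 and 0.116 in KO.

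The promoters of these genes could be read in RefSeq (GRCm38.p6), in windows of 300 bases that start 250 bases before the transcription start. The core of the interferon-stimulated response element, GAAANNGAAA or its reverse TTTCNNTTTC, occurred in 3.44% of 32851 windows. The sets of genes were counted per gene, where a match in any window of the gene sufficed. By that count it occurred in 3.84% of 14667 tested genes with a window. It occurred in 13.9% of 590 lower genes, 1.87% of 697 higher genes and 3.50% of 13380 genes not called. The core of the gamma-activated element, TTCNNNGAA, reads alike on both strands. It occurred in 12.4%, 9.18% and 8.43% of the same sets, in 8.6% of the tested genes and in 8.30% of all windows. The interferon core was present in all 5 guanylate-binding protein promoters and all 4 immunity-related GTPase promoters that could be matched. It was less frequent in the other lists of this kind, at 11 of 18 antiviral and 2 of 14 interferon signalling genes. Among MHC genes it was present in 4 of 11 of the class I and immunoproteasome list and 1 of 8 of the class II list. A match describes letters in the window and shows no binding. The 150 bases before the start are printed for members of 3 interferon lists and for Jaml, whose window also holds the core, with the matches in capitals.
Jaml promoter, chr9:45079033-45079182 on the plus strand: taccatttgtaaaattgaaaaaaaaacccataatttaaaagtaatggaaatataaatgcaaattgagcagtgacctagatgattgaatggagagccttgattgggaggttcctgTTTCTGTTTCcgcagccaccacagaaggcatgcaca
Gbp2 promoter, chr3:142620513-142620662 on the plus strand: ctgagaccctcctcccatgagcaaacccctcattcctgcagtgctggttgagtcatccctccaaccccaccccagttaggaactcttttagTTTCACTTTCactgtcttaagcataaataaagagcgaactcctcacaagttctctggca
Igtp promoter, chr11:58199406-58199555 on the plus strand: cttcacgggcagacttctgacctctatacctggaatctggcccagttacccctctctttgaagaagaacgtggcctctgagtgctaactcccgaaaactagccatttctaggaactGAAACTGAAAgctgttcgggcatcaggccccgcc
Isg15 promoter, chr4:156200819-156200968 on the minus strand: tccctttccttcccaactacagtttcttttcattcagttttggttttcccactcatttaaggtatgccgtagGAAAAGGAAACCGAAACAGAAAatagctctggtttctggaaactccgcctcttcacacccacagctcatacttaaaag
Ifit1 promoter, chr19:34640739-34640888 on the plus strand: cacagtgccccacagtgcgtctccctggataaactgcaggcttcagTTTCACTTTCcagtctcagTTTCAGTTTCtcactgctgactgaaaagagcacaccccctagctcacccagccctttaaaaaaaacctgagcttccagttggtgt
The match lies 36 bases before the start in Jaml, 59 in Gbp2 and 34 in Igtp, and Isg15 and Ifit1 hold 3 and 2 matches.

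Genes that cut and load peptides onto MHC class I were lower throughout, in contrast to the constitutive proteasome. All 13 class I and immunoproteasome genes tested were lower, with a median of -2.80. None of their KO arrays reached a WT array, which held for 12.2% of all genes. The count was 8 without KO sham replicate 1 or 3. Psmb8, a catalytic subunit of the immunoproteasome, read 5.60, 5.56 and 5.91 in WT and 0.84, 1.59 and 0.72 in KO. The difference was -4.64 ± 0.74 (adjusted p = 0.00642), or 25-fold. Psmb9, another such subunit, differed by -3.82 ± 0.60, and Tap1, a chain of the peptide transporter, by -3.78 ± 0.74. Nlrc5, the transactivator of class I genes, read 1.43, 1.61 and 3.13 in WT and -1.78, -0.38 and -1.76 in KO (-3.36 ± 0.65), and its dimmer probe differed by -0.63. B2m, the light chain of class I molecules, read 7.58, 7.74 and 7.72 in WT and 6.16, 6.31 and 5.99 in KO (-1.53 ± 0.30). The WT arrays lay close together for B2m, and WT sham replicate 3 was not the highest. The MHC class I heavy chains are near copies of one another, so their probes may cross-react.

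Of the 12 constitutive proteasome genes tested, 0 passed the limma test in either direction, and at an unadjusted p below 0.05 the counts were 0 lower and 1 higher. Their median was 0.15. Psmb5, the constitutive counterpart of Psmb8, differed by 0.26, and Psmb6, the counterpart of Psmb9, by 0.05.

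Most MHC class II genes, which present peptides to helper T cells, were lower as well. Of 12 tested, 10 were lower and 0 higher, with a median of -2.88. The count was 3 without KO sham replicate 1, 4 without KO sham replicate 3, 5 without WT sham replicate 1 and 6 without WT sham replicate 2. Ciita, the transactivator of class II genes, read 2.51, 2.61 and 4.61 in WT and -1.27, 0.41 and -1.44 in KO (-4.01 ± 0.71, adjusted p = 0.00984). H2-Aa, a class II chain, read 4.78, 4.81 and 4.38 in WT and 0.61, 1.54 and 0.50 in KO (-3.77 ± 0.80). H2-DMa, which helps load peptides, differed by -3.95 ± 0.77. H2-DMb2 differed by -7.58 ± 1.35, with only 1 of 3 KO arrays well above background. Ciita was highest in WT sham replicate 3, whereas H2-Aa was lowest there among the WT arrays. H2-Oa and H2-Ob, which are typical of B cells, differed by -0.59 and -0.85 without passing.

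Among 6 genes of chemokines that interferon induces and of their receptor, 4 were lower. The count was 1 without KO sham replicate 1 or 3 and 2 without WT sham replicate 1 or 2, and 2 with only the 6 sham arrays in the fit. Cxcl10 read 4.66, 4.79 and 6.70 in WT and 0.03, 2.10 and 0.11 in KO (-4.64 ± 0.66, adjusted p = 0.00443). Cxcr3, its receptor on activated lymphocytes, read 1.00, 0.97 and -1.39 in WT and -2.50, -1.53 and -2.80 in KO (-2.47 ± 0.57). The order of the WT arrays differed between the 2: replicate 3 was the highest for Cxcl10 and the lowest for Cxcr3, close to the highest KO array. Ccl5, made by activated T cells among others, read 3.46, 3.54 and 1.24 in WT and 0.05, 1.27 and -0.17 in KO (-2.36 ± 0.57), and here replicate 3 lay just below KO sham replicate 2. Cxcl9 and Cxcl11 did not pass (-2.53 and 0.02).

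The mean level of T cell genes was higher in 2 of the 3 WT kidneys than in any KO kidney. Of 17 tested, 9 were lower and 0 higher, with a median of -2.27. The count was 0 without any 1 of WT sham replicates 1 or 2 or KO sham replicates 1 or 3, 5 without any 1 of WT IRI replicate 3 or KO IRI replicates 1, 2 or 3 and 14 without WT sham replicate 3, 5 with no filter on dim probes, and 0 with only the 6 sham arrays in the fit. Cd3d, a chain of the T cell receptor complex, read 2.10, 2.05 and -0.89 in WT and -1.92, -1.02 and -2.04 in KO (-2.75 ± 0.67, adjusted p = 0.0334). Cd2, a T cell adhesion receptor, read 0.96, 1.08 and -1.90 in WT and -3.45, -2.08 and -3.30 in KO (-2.99 ± 0.71), and Cd3g differed by -2.77 ± 0.76. WT sham replicate 3 lay close to the highest KO array, KO sham replicate 2, in all 3 genes, and just below it for Cd3g. Cd4 and Cd8a did not pass (-0.05 and -1.83).

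The lower NK and cytotoxic lymphocyte genes had the same lowest WT array. Of 12 tested, 7 were lower and 0 higher, with a median of -2.65. The count was 2 without any 1 of WT sham replicates 1 or 2 or KO sham replicates 1 or 3 and 11 without WT sham replicate 3, and 2 with only the 6 sham arrays in the fit. Gzmb, a protease of cytotoxic granules, read 2.53, 2.37 and -1.22 in WT and -4.03, -2.76 and -4.74 in KO. The difference was -5.07 ± 0.88 (adjusted p = 0.00875), and all KO arrays lay below WT sham replicate 3, which was itself far below the other 2. Gzma and Gzmk, granule proteases too, differed by -3.60 ± 0.78 and -3.42 ± 0.78. Klrk1, the activating receptor NKG2D, did not share the wide gap among the WT arrays: it read -0.93, -1.06 and -1.39 in WT and -4.10, -2.86 and -4.09 in KO (-2.56 ± 0.32). The perforin gene Prf1 did not pass (-0.62).

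The WT arrays thus differed among themselves in opposite directions for the 2 kinds of gene. WT sham replicate 3 lay above both other WT arrays in 10 of 10 lower guanylate-binding proteins, 6 of 6 immunity-related GTPases, 20 of 21 antiviral genes and 7 of 7 signalling genes. It lay below both in 9 of 9 lower T cell genes (median -2.57 against the mean of the other 2), 7 of 7 NK genes (median -3.10) and 9 of 9 cell cycle genes (median -1.14). Over all 962 lower genes, replicate 3 was more than 1 log2 unit below both others in 131 and more than 1 above both in 126. Among the KO arrays, replicate 2 was the highest in 691 of the 962. What sets these arrays apart was not tested.

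**Figure D3:**
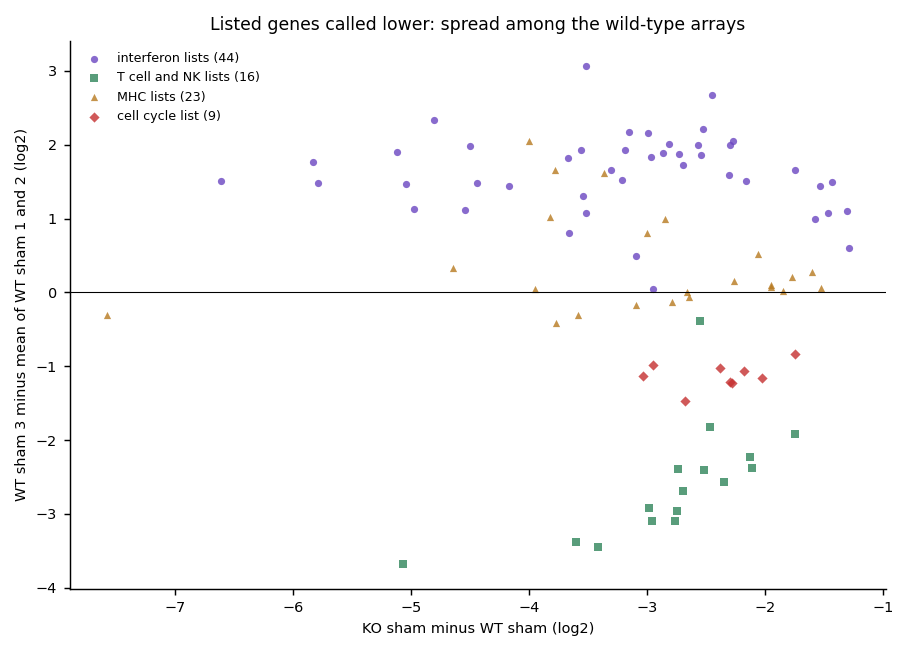
For listed genes called lower, the level in WT sham replicate 3 minus the mean of WT sham replicates 1 and 2 (log2, vertical axis) is plotted against the KO minus WT difference (log2, horizontal axis). The 44 genes of the interferon lists lie above 0, the 16 T cell and NK genes and 9 cell cycle genes lie below 0, and the 23 MHC genes lie on both sides.

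B and plasma cell genes did not pass the test. Of 8 tested, 0 passed in limma, 0 were lower and 2 higher at an unadjusted p below 0.05, and their median was 0.48. Ms4a1, a surface protein of B cells, differed by 0.99, and Jchain, a plasma cell product, by 0.51.

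Macrophage and monocyte genes were split between members that fell and the lineage receptor, which did not. Of 20 tested, 10 were lower and 0 higher, with a median of -1.18, and the count ranged from 9 to 13 when 1 array was left out. Fcgr4, an Fc receptor, read 0.87, 0.88 and 2.16 in WT and -1.28, -0.50 and -1.56 in KO (-2.42 ± 0.41, adjusted p = 0.00823). Fcgr1 differed by -2.32 ± 0.39, and Mpeg1, a pore-forming protein of macrophages, by -2.03 ± 0.25. C1qa, a subunit of complement C1q that macrophages make, read 1.89, 1.80 and 2.11 in WT and 0.02, 0.58 and -0.16 in KO (-1.78 ± 0.25). The 3 WT arrays lay close together here and above every KO array. Csf1r, the growth factor receptor of the lineage, differed by 0.36, Adgre1 (F4/80) by -1.11 and the mannose receptor gene Mrc1 by -0.02, none of which passed.

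Of 9 dendritic cell genes, 3 were lower and 0 higher, with a median of -0.62. The count was 1 without any 1 of WT sham replicate 1 or KO sham replicates 1 or 3, and 2 with the mean of all kept probes, which gave the dendritic cells a median of -0.17. Clec9a, a receptor for dead cells on cross-presenting dendritic cells, read -1.31, -1.26 and -1.53 in WT and -4.83, -2.92 and -4.79 in KO (-2.81 ± 0.56). Itgax (CD11c) differed by -2.37 ± 0.40 and Flt3, a growth factor receptor, by -1.18 ± 0.27. On these probes the 3 genes had no overlap between the groups. The dimmer probe of Itgax differed by -0.45 and that of Flt3 by 1.1, so the direction of Flt3 is unsettled.

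Of 13 neutrophil genes, 4 were lower and 0 higher, with a median of -1.02. The count was 1 without KO sham replicate 1 or 3 and 2 without WT sham replicate 3. The median of the neutrophils list was -0.52 without WT sham replicate 3 and -0.033 after normexp background correction. S100a9, a calcium-binding protein abundant in neutrophils, read 0.95, 0.94 and 2.94 in WT and -2.21, -0.09 and -1.99 in KO (-3.04 ± 0.67). WT sham replicate 3 was the highest array and KO sham replicate 2 the highest KO array, below all WT arrays. S100a8, its partner, differed by -3.08 ± 0.66. Ly6g and Lcn2, both of which have sources besides neutrophils or close relatives, differed by -1.95 ± 0.19 and -1.67 ± 0.41. The granule genes Mpo, Elane, Ltf and Camp differed by 0.68, 0.25, 0.35 and -0.30 without passing.

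Adhesion molecules of leukocytes and of the vessels they cross were lower in part. Of 13 tested, 7 were lower and 1 higher, with a median of -1.55. The count of lower genes was 4 without any 1 of WT sham replicates 1 or 2 or KO sham replicates 1 or 3. Itgb7 and Itgb2, integrin chains of leukocytes, differed by -2.39 ± 0.43 and -2.10 ± 0.33. Itgal, the partner of Itgb2 in LFA-1, differed by -2.08 ± 0.40 on its brightest probe and by -0.002 and 0.31 on its dimmer ones. Vcam1, an endothelial and epithelial ligand, read 2.28, 2.22 and 2.70 in WT and -0.01, 0.77 and 0.52 in KO (-1.97 ± 0.33), with no overlap. Madcam1, a ligand of the gut-homing integrin, was the 1 higher gene (1.47 ± 0.21), and only 1 of 3 WT arrays was well above background. The selectin gene Selp differed by 0.07 without passing.

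Among 16 CC chemokines and receptors, 5 were lower and 1 higher. The count of lower genes was 1 without KO sham replicate 1, 3 without any 1 of WT sham replicates 1 or 2 or KO sham replicates 2 or 3 and 9 without WT IRI replicate 1. Ccl2, which draws monocytes, read 0.82, 1.07 and 0.10 in WT and -2.97, -1.15 and -2.70 in KO (-2.93 ± 0.53, adjusted p = 0.0105). Ccl7, which acts on the same receptor, differed by -3.48 ± 0.63, with 2 of 3 KO arrays well above background. Ccl20 was well above background on no KO array and at least 4.1-fold lower there. Ccl28, a chemokine of epithelia, was higher, at 1.22, 0.18 and 1.22 in KO against a mean of -1.28 in WT (2.15 ± 0.41, adjusted p = 0.013). KO sham replicate 2 was the lowest KO array and remained above all WT arrays.

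Of 12 genes of the interleukin-1 family and inflammasome, 6 were lower and 0 higher, with a median of -0.87. Il18bp, a secreted decoy that binds interleukin-18, read 4.13, 4.04 and 4.30 in WT and -1.07, -0.50 and -1.09 in KO. Its difference of -5.04 ± 0.74 (adjusted p = 0.00526) was about the same on its other probe, -5.28. Aim2, a sensor of DNA, was at least 2.84-fold lower and well above background on no KO array. Casp4 and Casp1, inflammatory caspases, differed by -1.30 ± 0.34 and -1.27 ± 0.19. Il1b, Il18 and Il33 did not pass (-0.61, -0.22 and -0.62).

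Of 17 genes of Toll-like receptors and NF-kappaB, 4 were lower and 1 higher, with a median of -0.40. The count of lower genes was 0 without KO sham replicate 1, 1 without KO sham replicate 3, 2 without WT sham replicate 2 or 3 and 7 without WT IRI replicate 1. Tlr2 differed by -2.08 ± 0.55, and the NF-kappaB genes Relb, Nfkbia and Nfkb2 by -1.42 ± 0.27, -1.22 ± 0.23 and -0.90 ± 0.21. The other probes of Relb differed by -1.50 and 0.51. Tnf was higher by 0.65 ± 0.14 on the brighter of its 2 probes and differed by -2.70 on the dimmer one, so its direction is unsettled. Of 10 genes of the interleukin-6 family, 0 passed the limma test, and at an unadjusted p below 0.05 the counts were 4 lower and 1 higher.

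Complement genes of the early steps held some of the largest falls outside the interferon lists. Of 18 tested, 8 were lower and 0 higher, with a median of -0.99. The count was 4 without KO sham replicate 1. C3, the component where all pathways meet, read 6.68, 6.75 and 7.91 in WT and 2.44, 3.27 and 2.39 in KO. The difference was -4.41 ± 0.49 (adjusted p = 0.00253), or 21.3-fold. C4b read 5.83, 5.85 and 5.57 in WT and -0.57, 2.01 and -0.80 in KO (-5.54 ± 0.83). KO sham replicate 2 stood above the other KO arrays for C4b and below every WT array. C4a, a near copy of C4b that its probe may not tell apart, differed by -5.68 ± 0.85, with 1 of 3 KO arrays well above background. Cfi, the protease that inactivates C3b, differed by -2.85 ± 0.51. C6 and C7 differed by 0.21 and 0.20 without passing. Some genes of the early steps did not pass either: Cfd, which differed by 2.24, and C1s1, Cfb and Masp1.

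Of 16 acute-phase and coagulation genes, 2 were lower and 1 higher. The count of lower genes was 1 without any 1 of WT sham replicates 1, 2 or 3, WT IRI replicate 3, KO sham replicates 1, 2 or 3 or KO IRI replicates 1 or 3 and 5 without WT IRI replicate 1. Saa3, an acute-phase apolipoprotein made outside the liver, read -2.92, -3.16 and -1.41 in WT and -7.88, -8.19 and -8.30 in KO. It was well above background on no KO array and at least 10.3-fold lower (adjusted p = 0.00112), and it was among the 8 genes called with the close pairs averaged. Fgg, a fibrinogen chain, differed by -3.36 ± 0.89, with WT sham replicate 3 (4.18, 4.21 and 7.42 in WT) far above the others. Itih4 was the higher gene (0.76 ± 0.17), and its sign turned under other processing.

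Of 10 genes of C-type lectin signalling, 5 were lower and 0 higher. The count was 2 without any 1 of WT sham replicates 1 or 2 or KO sham replicate 1 and 3 without WT sham replicate 3 or KO sham replicate 3, and 3 after normexp background correction. Clec4e (Mincle), a receptor for products of dead cells, was at least 1.61-fold lower and well above background on no KO array. Fcer1g, the signalling chain it shares with Fc receptors, read 2.62, 2.59 and 2.61 in WT and 1.04, 1.49 and 0.81 in KO (-1.49 ± 0.17, adjusted p = 0.00257). Of 18 cell death genes, 4 were lower and 0 higher, among them Mlkl, the executor of necroptosis (-2.24 ± 0.47), its activating kinase Ripk3 (-1.43 ± 0.27) and Bak1 (-1.40 ± 0.18). That count was 1 without KO sham replicate 1 or 3 and 7 without WT IRI replicate 1.

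**Figure D4:**
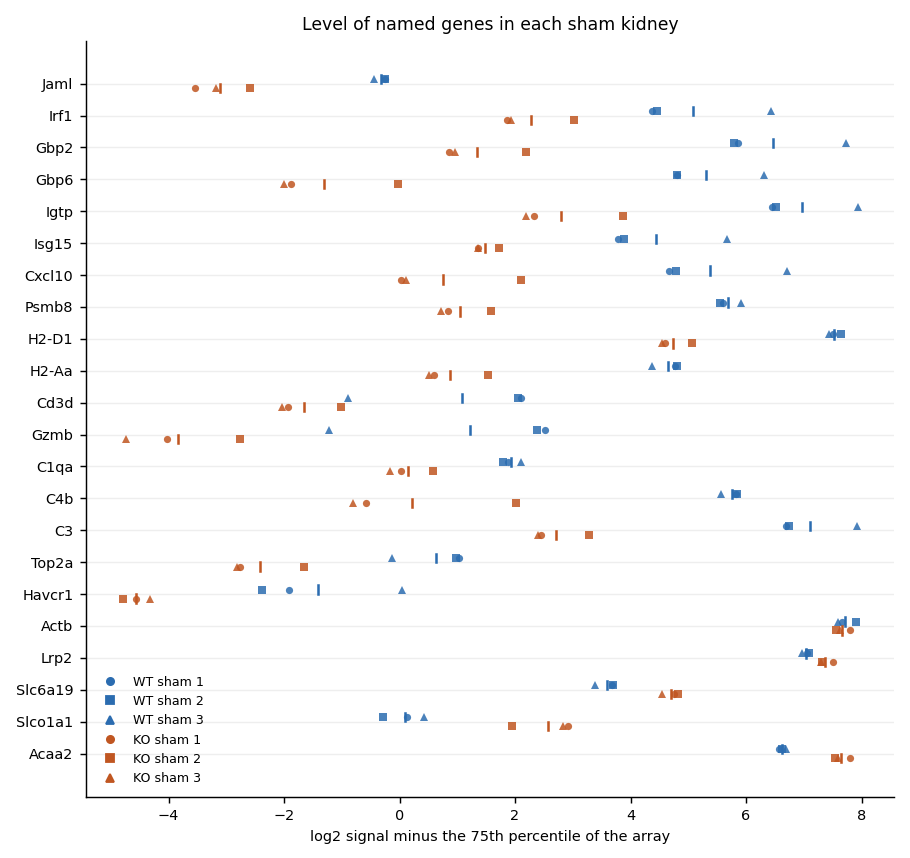
Level of 22 named genes in each sham kidney, as log2 signal minus the 75th percentile of the array (horizontal axis); blue symbols are WT, orange symbols KO, and vertical ticks the group means. KO arrays lie to the left of WT arrays from Jaml to Havcr1, the groups mix for Actb, and KO arrays lie to the right for Lrp2, Slc6a19, Slco1a1 and Acaa2.

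Of 20 cell cycle and replication genes, 9 were lower and 0 higher, with a median of -1.73. In the 9, WT sham replicate 3 was the lowest WT array, as it was for the lower T cell genes. The count was 2 without KO sham replicate 1, 3 without any 1 of WT sham replicates 1 or 2 or KO sham replicate 3 and 14 without WT sham replicate 3. Top2a, which untangles replicated DNA, read 1.03, 0.98 and -0.13 in WT and -2.76, -1.65 and -2.82 in KO (-3.04 ± 0.54, adjusted p = 0.00998). Mki67, the gene of the proliferation antigen Ki-67, read 1.82, 1.74 and 0.30 in WT and -1.74, -0.51 and -1.94 in KO (-2.68 ± 0.64). Bub1, a mitotic checkpoint kinase, differed by -2.95 ± 0.48, with 1 of 3 KO arrays well above background, and by 0.31 on its dimmer probe. The replication genes Pcna, Mcm2 and Tyms did not pass (-0.49, -0.54 and 0.03).

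Of 9 glucocorticoid-responsive genes, 2 were lower: Zbtb16 (-3.71 ± 0.87) and Angptl4 (-2.12 ± 0.52). The count was 0 without any 1 of WT sham replicates 1, 2 or 3 or KO sham replicates 1, 2 or 3. Of 16 immediate early genes, 2 were lower: Maff (-2.28 ± 0.59) and Atf3 (-2.01 ± 0.44). That count was 0 without any 1 of WT sham replicates 1, 2 or 3 or KO sham replicates 1, 2 or 3 and 1 without any 1 of WT IRI replicate 3 or KO IRI replicates 1, 2 or 3. It rose to 5 when WT IRI replicate 2 was left out and to 6 when WT IRI replicate 1 was. The list had a median of -0.89, and 13 of the 16 had every KO array below every WT array, which held for 12.2% of all genes. Of 15 genes of the unfolded protein and integrated stress response, 2 were lower, Ddit3 (-1.41 ± 0.23) and Creld2 (-1.03 ± 0.23). In 14 of the 15, every KO array lay below every WT array, against the same 12.2%. Here the count of lower genes was 1 without any 1 of WT sham replicates 1, 2 or 3 or KO sham replicates 2 or 3. It was 8 with only the 6 sham arrays in the fit.

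The listed markers of tubule injury did not pass the test. Lcn2, a marker of kidney injury too, was counted with the neutrophil genes and was lower (-1.67, adjusted p = 0.0333 in limma). Of the 18 listed markers tested, 0 passed in limma, 8 were lower at an unadjusted p below 0.05, and the median was -0.43. Under quantile normalization 3 were called lower. Havcr1 (KIM-1), the standard marker of the injured proximal tubule, read -1.91, -2.38 and 0.04 in WT and -4.56, -4.79 and -4.33 in KO (-3.14 ± 1.15, adjusted p = 0.122). The groups did not overlap, but the WT arrays spread over more than 2 log2 units, with replicate 3 the highest. The keratin genes Krt8 and Krt18 differed by 0.04 and -0.03.

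Genes of the resident cell types of the nephron and vessels did not pass the test. Of 12 genes of proximal tubule endocytosis and the brush border, 16 of the thick limb and distal tubule, 10 of podocytes and 13 of the endothelium, 0 passed the limma test. Their medians were 0.20, 0.15, 0.03 and 0.19. The endocytic receptor gene Lrp2 differed by 0.33, Umod by 0.00, the podocyte gene Nphs1 by 0.33 and the endothelial gene Pecam1 by 0.12. Over the 21 lists with no call, which hold 235 genes, 22 genes were lower and 23 higher at an unadjusted p below 0.05. The 10 reference genes, none of them called, had a median of 0.06, and Actb differed by -0.06.

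Genes higher in KO were more often dim and changed less. Ranked by mean level and split into 3 equal parts, the 8581 dimmest genes held far more rises than falls: 740 were higher and 294 lower, and the median difference was 0.25. Among the 8582 brightest, 231 were higher and 207 lower, and the median was 0.10. Odorant and vomeronasal receptor genes, which have no common role in kidney and of which 279 of 306 lay in the dimmest part, were called higher in 51 cases (16.7%) and lower in 1, with a median of 0.48. How far the level of a probe bears on the rises was not tested, so brighter genes are given first.

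Slco1a1, an organic anion transporter of the proximal tubule that androgen raises in mice, was among the clearest rises. It read 0.13, -0.28 and 0.42 in WT and 2.91, 1.95 and 2.83 in KO. All KO arrays lay above all WT arrays by more than 1 log2 unit, which made a difference of 2.48 ± 0.33 (adjusted p = 0.00399), or 5.57-fold, and 2.50 on its other probe. Every KO array lay above every WT array in 30.6% of all genes. Of 8 androgen-responsive kidney genes, 3 were higher and 0 lower, with a median of 0.82, and the count was 2 to 3 when 1 array was left out. Acsm3, a fatty acid-activating enzyme, read 4.81, 4.69 and 5.03 in WT and 6.46, 5.87 and 6.38 in KO (1.39 ± 0.24). Odc1, the first enzyme of polyamine synthesis, differed by 1.12 ± 0.25. Kap, the classic androgen-regulated kidney gene, differed by 0.18 without passing.

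Of 25 proximal tubule transporters, 3 were higher and 1 lower, with a median of 0.37. The count of higher genes was 1 without KO sham replicate 1 and 6 without WT IRI replicate 1. Besides Slco1a1, the neutral amino acid transporter Slc6a19 read 3.68, 3.69 and 3.39 in WT and 4.76, 4.83 and 4.54 in KO (1.12 ± 0.22, adjusted p = 0.0148). The glucose transporter Slc5a2 (SGLT2) differed by 0.83 ± 0.18. The sulfate transporter Slc13a1 was the lower gene: it read 6.13, 6.23 and 7.12 in WT and 5.43, 5.43 and 5.24 in KO (-1.12 ± 0.23), with WT sham replicate 3 the highest. The phosphate transporter Slc34a1 differed by 0.38 without passing.

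Some genes of mitochondrial energy metabolism were higher, where 5.16% of all genes were. Of 18 oxidative phosphorylation genes, 2 were higher and 0 lower (median 0.32). Of 10 tricarboxylic acid cycle genes, 3 were higher and 0 lower (median 0.36). Every KO array lay above every WT array in 16 of the 18 and 8 of the 10, against 30.6% of all genes. Both lists had 0 calls under quantile normalization, with medians of 0.22 and 0.28. The counts of oxidative phosphorylation genes were 0 without any 1 of WT sham replicates 1, 2 or 3 or KO sham replicates 1 or 3, 1 without any 1 of WT IRI replicate 3, KO sham replicate 2 or KO IRI replicates 1, 2 or 3 and 7 without WT IRI replicate 1. For the cycle, the count was 0 without any 1 of WT sham replicates 1, 2 or 3, KO sham replicates 1, 2 or 3 or KO IRI replicates 1 or 3. It was 1 when WT IRI replicate 3 or KO IRI replicate 2 was left out and 5 when WT IRI replicate 1 was left out. Cyc1, cytochrome c1, read 6.34, 6.29 and 6.16 in WT and 7.00, 6.69 and 6.84 in KO (0.58 ± 0.13). Acaa2, the last enzyme of mitochondrial fatty acid oxidation, was the 1 call among 18 genes of that pathway: it read 6.57, 6.62 and 6.70 in WT and 7.80, 7.53 and 7.60 in KO (1.01 ± 0.17, adjusted p = 0.00737). Of 20 sterol and fatty acid synthesis genes, Sqle was lower (-0.72 ± 0.13) and 0 were higher, and the median of the list was 0.48. That median was 0.22 without WT sham replicate 3, and 3 genes were higher without WT IRI replicate 1.

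Besides Slco1a1, the 15 largest rises by the fixed rule included Crabp1, Cox6a2 and Bbox1. Crabp1, a cytosolic carrier of retinoic acid, read -5.77, -5.91 and -5.96 in WT, where 2 of 3 arrays were well above background, and -2.35, -2.90 and -2.42 in KO (3.32 ± 0.40, adjusted p = 0.00295). Cox6a2, a muscle and heart form of a cytochrome c oxidase subunit, read -1.45, -1.41 and -3.26 in WT and 1.57, 0.20 and 1.42 in KO (3.10 ± 0.73). Bbox1, the last enzyme of carnitine synthesis, read -2.66, -2.81 and -1.95 in WT and 0.06, -0.58 and -0.18 in KO (2.24 ± 0.42). The groups did not overlap in these 3 genes. Ccn5, Spry3, Prnd, Shbg and T were well above background on no WT array and were higher by at least 2.23-, 4.78-, 3.25-, 2.65- and 1.59-fold. The rule itself asked for signal well above background on every KO sham array, so that state there is no result. Prnd passed the filter only through the KO sham arrays. The lens crystallin genes Cryga and Crygd differed by 2.59 ± 0.42 and 2.31 ± 0.28.

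The largest fall of all was that of Ubd, the ubiquitin-like protein FAT10, which inflammatory cytokines raise. It read 4.53, 4.53 and 5.32 in WT and -3.77, -1.62 and -3.17 in KO, a difference of -7.65 ± 1.36 (adjusted p = 0.00969). KO sham replicate 2 was the highest KO array and still lay far below the lowest WT array. Serpina10 differed by -5.02 ± 0.73, with 2 of 3 KO arrays well above background. The remaining genes among the 15 largest falls belonged to the guanylate-binding proteins, complement C4, the immunity-related GTPases and MHC class II, beside Saa3, Gzmb and Il18bp described above.

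Markers of tissues that can be carried along with a kidney varied between arrays. The mean level of 10 adipose genes ran from -1.89 to -0.97 in WT and from -0.88 to 0.72 in KO, with KO sham replicate 2 the highest. The defining marker Adipoq read -3.97, -6.79 and -4.97 in WT and -4.71, -1.20 and -3.83 in KO and did not pass. Cd36, a fatty acid transporter that other cells share, was the 1 call (0.99 ± 0.21). The 9 erythrocyte genes ran from -0.79 to -0.43 in WT and from -0.45 to 0.05 in KO, with 0 calls. Of 6 liver genes, 2 were higher: Alb (1.23 ± 0.18) and Ttr (1.07 ± 0.20), whereas Apoa1 differed by -0.36. The part of these tissues in the other results was not tested.

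Near Jaml on chromosome 9, calls were about as frequent as elsewhere. Of 142 genes tested within 5 Mb of the Jaml probe, 5 (3.52%) were lower and 7 (4.93%) higher, against 3.74% and 5.16% of all genes, and the median was 0.10. The lower genes include Zbtb16, given above among the glucocorticoid-responsive genes, which had the largest fall (-3.71 ± 0.87). They also include the T cell receptor chains Cd3g and Cd3d and the interleukin-10 receptor gene Il10ra (-1.34 ± 0.24). The higher genes include Sc5d, an enzyme of cholesterol synthesis (0.73 ± 0.15).

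In injured kidneys, KO and WT were compared in the same way, on the other 6 arrays, to ask which genotype differences depended on injury. After IRI, 267 genes were lower in KO and 236 higher. The difference between the sham and the IRI contrast, tested as an interaction in limma, passed for 18 genes (0.0699%), and 2519 had an unadjusted p below 0.05. No gene of the 4 interferon lists passed it. The medians of the guanylate-binding proteins were -4.50 in sham and -1.45 in IRI kidneys, and those of the immunity-related GTPases -4.36 and -2.16. WT IRI replicate 1 stood apart: Gbp6 read 3.83, -0.57 and -0.64 in the WT IRI arrays and -2.37, -2.19 and -2.14 in the KO IRI arrays. The interaction passed for 144 genes when WT IRI replicate 1 was left out. The count was 4 without WT sham replicate 1 or KO sham replicate 3, 5 without KO sham replicate 1 or KO IRI replicate 2, 6 without WT sham replicate 2, 8 without KO IRI replicate 1, 30 without KO IRI replicate 3 and 59 without WT sham replicate 3.

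Gpr33, a chemoattractant receptor, was among the 18 genes. It read -4.95, -5.13 and -4.11 in WT sham and -7.75, -8.06 and -8.15 in KO sham, against -7.80, -8.60 and -8.39 and -8.45, -8.29 and -8.33 after IRI. It was well above background in WT sham kidneys only, and KO sham kidneys were at least 2.17-fold lower. Gpr33 thus passed the filter only through the WT sham arrays, where it was high. The interaction (adjusted p = 0.0233 in limma) is therefore no separate support and has no measured size. Plaat3, a phospholipase of adipose and other tissues, read 3.04, 3.19 and 3.23 in WT sham and 1.78, 1.82 and 1.92 in KO sham, against 2.54, 2.47 and 2.44 and 2.30, 2.36 and 2.33 after IRI (-1.16 ± 0.14, adjusted p = 0.0233). Cxcl2 and Cxcl3, chemokines that draw neutrophils, showed the reverse: both were well above background only in the 3 WT IRI kidneys. Both passed the filter only through those arrays. Cxcl3 read -3.57, -2.09 and -1.51 in WT IRI and -8.57, -8.40 and -8.43 in KO IRI kidneys, which were at least 14-fold lower. The bound for Cxcl2 was 3.04-fold.

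**Figure D5:**
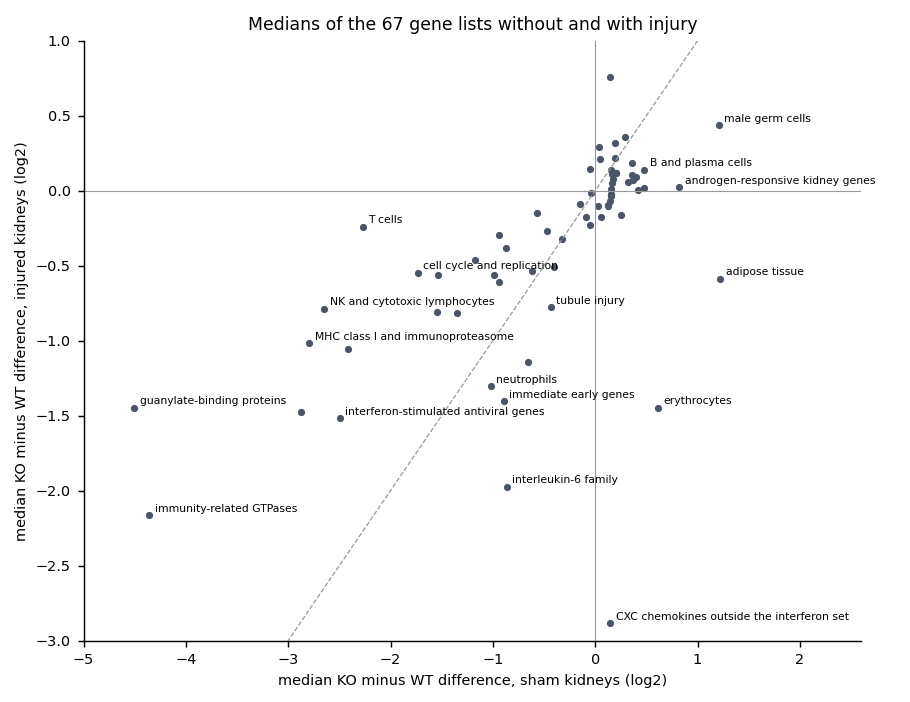
Median KO minus WT difference of each of the 67 gene lists in sham kidneys (log2, horizontal axis) against that in IRI kidneys (log2, vertical axis), 1 point per list; the dashed line marks equal medians. The guanylate-binding proteins lie at -4.50 and -1.45, the T cell genes at -2.27 and -0.24, and the CXC chemokines outside the interferon set at 0.15 and -2.88.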

How the data were processed

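RNA of mouse kidney was measured on 12 one-colour arrays, 3 per group, with 62976 spots each. The deposited intensity values come from Agilent Feature Extraction 10.7.1.1 on a design with mm9 coordinates, per the file headers: gProcessedSignal, already background-subtracted. The authors also deposited a table of log2 values, which served as an alternative and whose normalization no source used here states. The submitters' processing notes name limma without a version. The number of arrays limits the precision.

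From the intensity values, log2 signals minus each array's 75th percentile were computed, control spots and outlier flags were left out, and spots of a probe were averaged. A probe was kept where 3 or more of the 12 arrays, from whichever groups, read it well above background. The brightest kept probe stood for its gene. All 12 arrays were fitted with limma 3.58.1 (R 4.3.3), lmFit and eBayes, with Benjamini-Hochberg adjustment over 25744 genes and a threshold of 0.05. Where a gene was well above background on no array of a group, the fold is a lower bound against the dimmest signals well above background. On simulated data for the KO sham minus WT sham comparison, with 25725 genes, 48% of 100 genes changed 2-fold and 75% of 100 changed 4-fold were recovered, with 5 false calls. The simulated arrays were independent, with no close pairs and fewer changed genes than were called here, so these rates may not carry over. The samples and gene lists were chosen with earlier results of these data known.

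Named genes are Jaml, the 15 largest falls and rises with ordinary symbols and groups that do not overlap, up to 4 called members of a list in its leading direction and 2 in the other, and the first member of a list. The largest falls and rises also had to be well above background on every array of the higher group, so they were selected by that group. Other members are given to complete a list and were chosen after their values were seen. A few genes are counted in their lists but not reported here by name. Alternatives covered normalization, background correction, the filter, the choice of probe, the deposited log2 table, the arrays in the fit, array weights, moderation, a replicate block and leaving out each array.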

Additional observations from a re-analysis of the deposited data

Results flagged for a closer look

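The KO minus WT difference of 15 genes with ordinary symbols was not the same in sham and in IRI kidneys by limma's interaction test. Values are the sham difference minus the IRI difference, on the log2 scale, with n = 3 per group. Negative values, from a fall in KO seen in sham kidneys, were found for Gpr33 (-3.17), Plaat3 (-1.16), Hyls1 (-1.15) and the hedgehog ligand gene Ihh (-1.05). Hyls1 differed by -0.80 in sham and 0.35 in IRI kidneys, and Ihh by -0.76 and 0.29.

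Positive values were found for the chemokine genes Cxcl3 (6.25) and Cxcl2 (4.03), and for Crtac1 (4.72), Cyp24a1, which breaks down active vitamin D (4.10), the neuropeptide gene Grp (3.79), DXBay18 (3.34), Gsdma (3.13), Cited1 (2.47), Hpcal4 (2.46), Nxnl2 (1.96) and Hmga1 (1.43). In sham kidneys, DXBay18 was higher in KO: it read -4.05, -4.43 and -4.98 in WT and -2.36, -2.48 and -2.40 in KO. Cxcl3, Cxcl2, Crtac1 and Grp were well above background in no sham kidney, and Gsdma in 1. Cxcl3, Cxcl2 and Crtac1 were also well above background in no KO IRI kidney, and Gpr33 only in WT sham kidneys. The values of these 6 genes are set against signals not well above background, so they are the fitted differences and not measured sizes. Gpr33 passed the filter only through the WT sham arrays, and Cxcl3, Cxcl2 and Crtac1 only through the WT IRI arrays. For these genes the interaction test is no separate support. With the close sham pairs averaged, 0 genes passed this test in limma, and 1388 had an unadjusted p below 0.05.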

How the results depend on the processing

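Of 244 called genes named or listed here, 89 kept their call under all 23 other settings, averaged pairs aside, and 242 kept their direction. Jaml kept its direction throughout, at -3.04 to -2.57 when 1 array was left out and -2.63 with the close pairs averaged (adjusted p = 0.155, limma). The number of called genes was 4015 with only the 6 sham arrays, 9087 with array weights, 3650 with 5 sham arrays (without WT sham replicate 3), 8 with the close pairs averaged, and 644 to 4395 when 1 array was left out. Lower genes numbered 2661 with array weights, 1448 with 5 sham arrays, 7 with averaged pairs and 342 to 1467 with 1 array left out. Higher genes numbered 824 under quantile normalization, 830 in the authors' table, 2755 with only the 6 sham arrays, 6426 with array weights, 2202 with 5 sham arrays, 1 with averaged pairs and 302 to 2928 with 1 array left out. The interaction passed for 37 genes after normexp, 9 with the mean of all kept probes, 2703 with array weights, 5 with the replicate block, 0 with averaged pairs and 4 to 144 with 1 array left out. Tnf turned to -1.02 with the mean of its probes, Itih4 to -0.26 after normexp and -0.40 with the mean of its probes, and Sox9, which was not called, to -0.49 and -0.36. The cause was not tested. The 5-array fit and the averaged pairs were added after seeing the data. With the replicate block, 1773 genes were called (815 lower, 958 higher), but WT and KO samples share only a number: deviations of same-numbered sham samples correlated at -0.008, 0.021 and 0.146. Dim probes limit the folds of genes not well above background.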

Other observations

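Several genes outside the lists, chosen after their values were seen, showed large differences. The immune checkpoint ligand gene Cd274 (PD-L1) read 1.68, 1.61 and 4.52 in WT sham and -1.13, -0.10 and -0.97 in KO sham kidneys (-3.33 ± 0.89, adjusted p = 0.0457 in limma), with WT sham replicate 3 the highest. The checkpoint receptor gene Havcr2 (TIM-3) read -1.68, -1.63 and -1.80 in WT and -5.10, -3.93 and -5.23 in KO (-3.05 ± 0.29, adjusted p = 0.0018 in limma), with the 3 WT arrays close together. Tnfrsf9 (4-1BB), a costimulatory receptor, was well above background on no KO array and at least 5-fold lower.

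Another 4 genes outside the lists were higher. Dio1, which activates thyroid hormone, read -0.14, -0.29 and -0.10 in WT and 1.23, 1.14 and 1.20 in KO (1.36 ± 0.22). Ces1e, a carboxylesterase, read 2.36, 2.36 and 2.03 in WT and 4.03, 4.18 and 3.90 in KO (1.78 ± 0.16). Bcl6, a transcriptional repressor, differed by 1.63 ± 0.32 on its brighter probe and by -0.27 on its dimmer one, and Bcat1, an enzyme of branched-chain amino acid breakdown, by 2.18 ± 0.38. The groups did not overlap in these 4 genes on the probes given.

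Wdfy1 differed on 1 of its 3 kept probes. That probe read 3.77, 3.71 and 2.77 in WT sham and 0.76, 0.72 and 0.42 in KO sham kidneys (-2.78 ± 0.65), and 3.29, 0.26 and 0.55 in WT IRI kidneys, where replicate 1 was high. Its other probes differed by 0.01 and 0.23. Nnt, the mitochondrial transhydrogenase gene, differed by 0.97 ± 0.28 (adjusted p = 0.0594 in limma) and did not pass.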
